A study of Sus scrofa with 37 samples.

Results

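Levels of genes of the endoplasmic reticulum (ER) folding machinery and of the unfolded protein response were compared between the pancreas and cultured islets of pigs with a High or a Low islet density label. The genes were given as 10 symbols, and rows were sought by matching the Ensembl pig identifiers of the count tables to symbols. Of 25880 identifiers in the tables, 8 matched, 1 each for HSPA5 (ENSSSCG00000005601), HSP90B1 (ENSSSCG00000000849), MANF (ENSSSCG00000032914), CRELD2 (ENSSSCG00000000981), PDIA4 (ENSSSCG00000015453), XBP1 (ENSSSCG00000030996), EDEM1 (ENSSSCG00000034197) and SEL1L (ENSSSCG00000002414). No row was matched to ATF4 or DDIT3, transcription factors of the PERK branch, and these were not analysed here. All 8 matched genes passed the filter on low counts in each comparison.

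Secreted and membrane proteins fold in the ER, where chaperones hold unfolded chains and disulfide isomerases join their cysteines. When unfolded chains build up, the sensors IRE1 (gene ERN1), PERK (gene EIF2AK3) and ATF6 slow translation and raise transcription of chaperones and of the machinery that sends misfolded proteins to the proteasome. Acinar cells, which make digestive enzymes, and beta cells, which make insulin, both carry a heavy secretory load, and XBP1, the transcription factor whose RNA is spliced by IRE1, is known to be needed by both.

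Samples came from pigs whose breed, sex and age the labels do not give, and each title carries an animal code. Pancreas samples were 50 mg pieces of the duodenal lobe taken at organ retrieval, and islet samples were purified and kept in floating culture for 7 days, so tissue and culture cannot be told apart. The libraries used were 8 pancreas High, 9 pancreas Low, 8 islets High, 9 islets Low plus islets from 12AS51 without a density label, 35 in all of 37 samples. Both tissues were counted in 16 animals, and how density was measured is not stated in the labels.

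Several libraries stood apart before any gene was tested. Gene counts per library were 3237653 to 6702589 in islets and 1855075 to 3922006 in pancreas High, but 7 of the 9 pancreas Low libraries held 265000 to 536014 counts. These shallow libraries are 12FS135 and the 6 animals whose code begins with 14, and their summed level of acinar markers (13 of 21 listed markers had a row) was 12645 to 33315 counts per 1000000 counts (CPM), against 182110 to 287814 CPM in pancreas High. The deeper Low libraries, 12FS161 and 15LS30, held 129038 and 108047 CPM of acinar markers, and 15LS30 also had 5446 CPM of pan-endocrine markers, against 199 to 1069 CPM in pancreas High. In labelled islets acinar markers summed to 8.10 to 556 CPM, with SYCN at 0 in 13 and RBPJL at 0 in 10 of the 18 islet libraries, and pan-endocrine markers to 15933 to 29547 CPM. In the islets of 12AS51, 87.8% of counts fell on 10 genes, and in the islets of 15AS28, labelled High, 52.3%. In the shallow pancreas libraries 10 genes took 53.3% to 71.7% of counts, against 30.4% to 45.1% in pancreas High.

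HSPA5 encodes BiP, the ER member of the HSP70 family, which binds unfolded chains and the sensors themselves. Its level in pancreas High was 222 CPM in the lowest library, 325 CPM at the median and 472 CPM in the highest. The shallow Low libraries had 18.2, 40.1 and 72.1 CPM on the same measures, and the deeper Low libraries had 219.7 CPM (12FS161) and 580.4 CPM (15LS30). All 7 shallow libraries lay below every High library, and 15LS30 lay above them all. Islets High had a lowest level of 1209.8, a median of 1363 and a highest of 1727 CPM, and islets Low had 1139, 1492 and 1829.6 CPM. Every labelled islet library was above every pancreas library, and the islet groups overlapped. RABEPK lies within 1000 bases of HSPA5 in RefSeq. The islets of 12AS51 stood at 148 CPM (95% Wilson interval 139 to 157, for counting error only). In bulk samples fewer cells of a type and less RNA per cell cannot be told apart, and this holds for every level given here. The share of all genes whose groups separate without overlap was not counted.

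HSP90B1 encodes GRP94, the ER member of the HSP90 family. Its levels in pancreas High ran from 189.7 through a median of 289.5 to 386 CPM. In the shallow Low libraries they ran from 14.6 through 33.6 to 40.5 CPM, and 12FS161 and 15LS30 had 200.0 and 514 CPM. As for HSPA5, 15LS30 was the highest and the shallow libraries the lowest of the pancreas. Islets High had 622, 1111 and 1241 CPM as lowest, median and highest, islets Low had 977, 1052 and 1147 CPM, and the islets of 12AS51 had 81.5 CPM. The lowest labelled islet library was 15AS28, which was still above the pancreas of every animal. The gene C5H12orf73 overlaps HSP90B1 in RefSeq, and without a stated strand setting reads of both cannot be told apart.

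**Figure D1:**
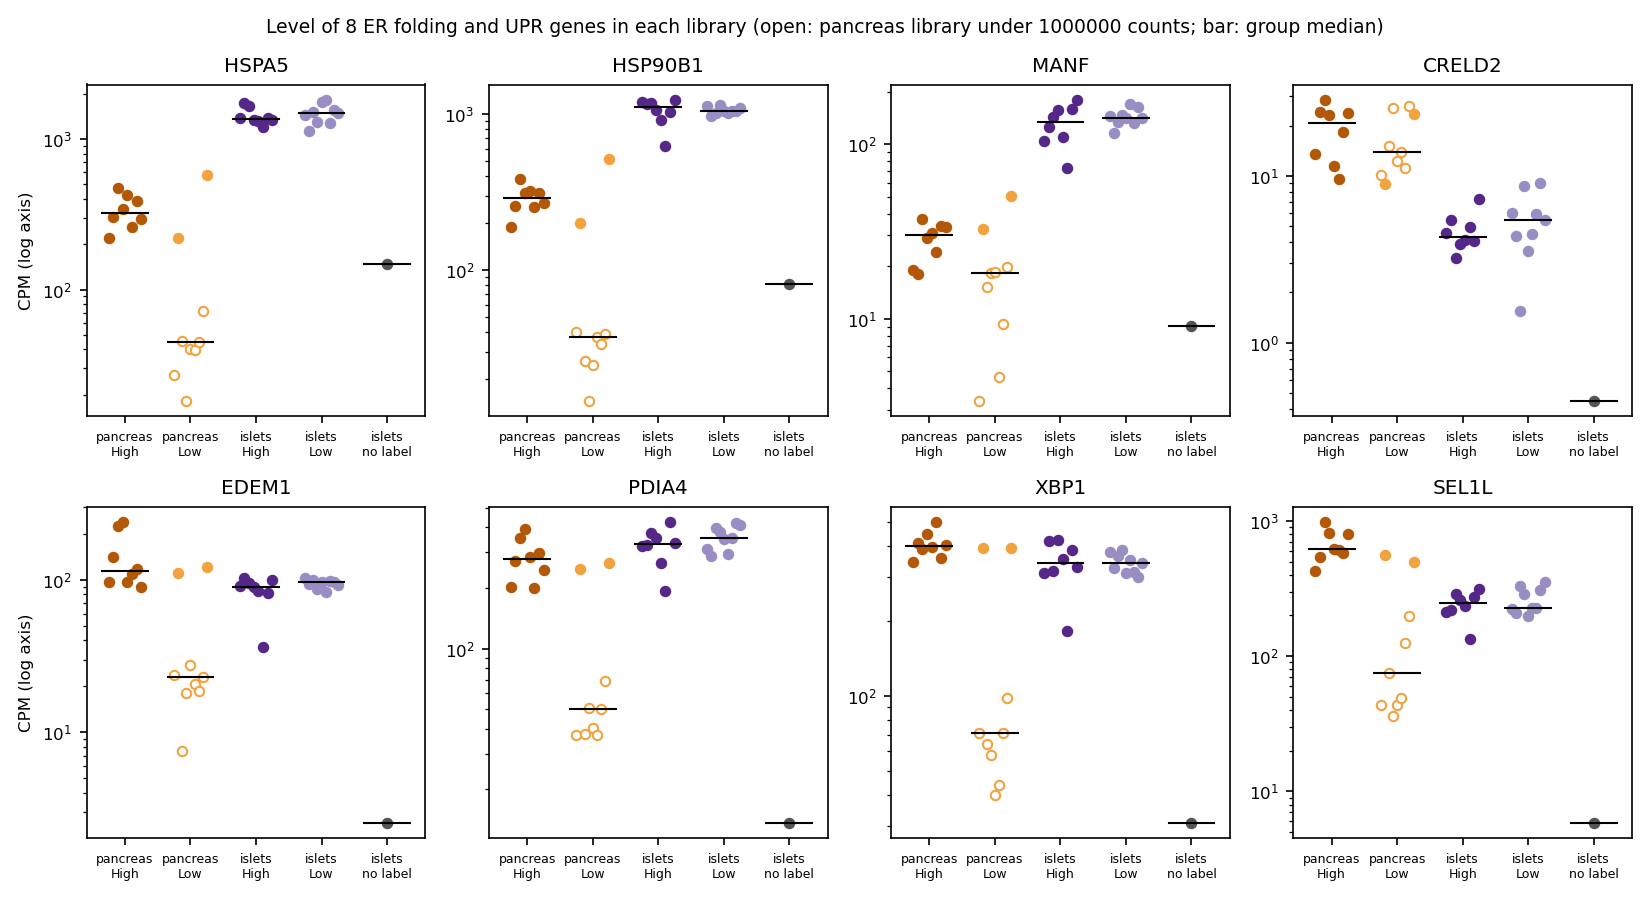
Level of each gene in CPM (log axis) in each library, by tissue and density label; each point is a library, open points are pancreas libraries under 1000000 counts, and the bar is the group median. HSPA5, HSP90B1 and MANF were higher in labelled islets than in pancreas and CRELD2 mostly lower, while the 7 open points lie below the pancreas High libraries for 6 genes but not for MANF and CRELD2. The share of all genes that separate in these ways was not counted.

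MANF and CRELD2 encode small ER-resident proteins that can be secreted and are known targets of the unfolded protein response, and they lay on opposite sides of the tissue comparison. MANF had 18.1, 30.01 and 37.4 CPM (lowest, median, highest) in pancreas High and 3.37, 15.1 and 19.7 CPM in the shallow Low libraries. Those shallow values rest on 1 to 6 counts each, and the lowest, with 1 count in 12FS135, has an interval of 0.596 to 19.1 CPM. The deeper Low libraries had 32.7 CPM (12FS161) and 50.4 CPM (15LS30). In islets High the levels were 72.9, 134 and 180.2 CPM and in islets Low 116, 142 and 171 CPM, with 9.10 CPM in 12AS51. Labelled islets were all above the pancreas.

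CRELD2 had 9.54, 20.7 and 28.6 CPM in pancreas High and 8.95, 13.9 and 26.2 CPM over all 9 pancreas Low libraries, of which the shallow ones rest on 3 to 8 counts. The pancreas groups overlapped, and the shallow libraries did not stand below the others. Islets High had 3.22, 4.33 and 7.25 CPM and islets Low had 1.54, 5.46 and 9.04 CPM, from 8 to 42 counts per library. The islets of 12AS51 held 3 CRELD2 counts (0.448 CPM). Islets High lay below pancreas High without overlap, and the highest islet Low library just passed the lowest pancreas library. CRELD2 lies within 1000 bases of ALG12 in RefSeq.

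PDIA4 encodes a protein disulfide isomerase of the ER. It had 201, 278 and 391 CPM in pancreas High, 37.1, 40.1 and 68.8 CPM in the shallow Low libraries, and 248 and 265 CPM in the deeper ones. Islets High had 193, 329 and 425 CPM and islets Low had 289, 355 and 422 CPM, with 13.6 CPM in 12AS51. Outside the shallow libraries, islets and pancreas overlapped. XBP1 had 344, 400.2 and 499 CPM in pancreas High, 40.1, 64.2 and 98.3 CPM in the shallow libraries, and 393 and 390.5 CPM in 12FS161 and 15LS30. In islets High its levels were 182, 342 and 422 CPM and in islets Low 301, 341 and 385 CPM, with 30.9 CPM in 12AS51. Counts per gene do not separate the spliced from the unspliced XBP1 RNA. The lowest labelled islet library for both genes was again 15AS28.

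EDEM1 and SEL1L belong to ER-associated degradation: EDEM1 directs misfolded glycoproteins to it, and SEL1L is the partner of the ubiquitin ligase HRD1 (gene SYVN1) in the ER membrane. EDEM1 had 89.2, 113 and 239.5 CPM in pancreas High, 7.55, 20.9 and 27.8 CPM in the shallow libraries, and 111 and 120.4 CPM in the deeper Low ones. Islets High had 36.4, 90.1 and 103 CPM and islets Low 83.4, 96.3 and 102 CPM, with 2.54 CPM in 12AS51. The islet levels overlapped the lower end of the pancreas High range. SEL1L had 428, 617 and 982 CPM in pancreas High, 36.4, 48.7 and 197 CPM in the shallow libraries, and 554 and 495 CPM in 12FS161 and 15LS30. Its islet levels were 133.1, 248 and 312 CPM in High and 196, 227 and 352 CPM in Low, with 5.82 CPM in 12AS51. Each labelled islet library had less SEL1L than each deeper pancreas library and the highest shallow library lay above 2 of the labelled islet libraries.

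Islets had more HSPA5, HSP90B1 and MANF and less CRELD2 than pancreas, and the degradation genes SEL1L and EDEM1 were lower. On the log2 scale HSPA5 was higher by 2.13 (SE 0.33, adjusted p = 4.11e-07), HSP90B1 by 1.87 (SE 0.32, adjusted p = 3.61e-06) and MANF by 1.84 (SE 0.16, adjusted p = 7.55e-13), from edgeR's quasi-likelihood test over all 35 libraries. CRELD2 fell by 2.44 (SE 0.20, adjusted p = 5.5e-14), SEL1L fell by 1.39 (SE 0.34, adjusted p = 0.000454) and EDEM1 fell by 0.72 (SE 0.28, adjusted p = 0.0216). PDIA4 (log2 difference 0.23, adjusted p = 0.472) and XBP1 (-0.26, adjusted p = 0.415) did not pass. Thus 3 of 8 were called higher and 3 lower, while 62.6% of the 12339 genes tested were called at an adjusted p under 0.05, 31.1% higher and 31.5% lower. The share of the 8 genes called was near that background. Their median log2 difference was -0.01, and that of all genes was also -0.01. Without pancreas High replicate 3 or 4 EDEM1 lost its call (log2 differences -0.58 and -0.55, adjusted p = 0.0567 and 0.0622).

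The tissue difference depended on the pancreas libraries used, and the following fits share libraries with the one above and with the density comparisons. It is given first without those that stood apart. Without the 7 shallow libraries and the islets of 12AS51, 8 of 8 genes were called, 3 higher and 5 lower, beside 70.4% of all genes called. HSPA5 was then higher by 1.52 and HSP90B1 by 1.26, and the lower genes were CRELD2 (-2.44), SEL1L (-1.94), EDEM1 (-1.20), XBP1 (-0.83) and PDIA4 (-0.28, adjusted p = 0.0458). MANF was higher by 1.63. Between the High libraries of both tissues, none of which is shallow, the pattern was the same 3 higher and 5 lower, beside 61.1% called, 30.7% higher and 30.4% lower. There HSPA5 was higher by 1.49 (SE 0.18), MANF by 1.62 (SE 0.15) and HSP90B1 by 1.26 (SE 0.15). CRELD2 fell by 2.63 (SE 0.25), SEL1L by 2.09 (SE 0.17), EDEM1 by 1.36 (SE 0.22) and XBP1 by 0.87 (SE 0.14). PDIA4 was at -0.40 (SE 0.17, adjusted p = 0.0449) with scaled totals, but its mean was 324 ± 69.9 CPM in islets High and 280.5 ± 67.1 CPM in pancreas High (SD, n = 8 each), so its direction turned with the scaling.

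Between the Low libraries, where 7 of 9 pancreas libraries are shallow, 5 of 8 genes were higher in islets and 1 was lower, beside 61.3% called, 30.4% higher and 30.9% lower. HSPA5 was higher by 3.20 (SE 0.48), HSP90B1 by 2.93 (SE 0.47), MANF by 2.22 (SE 0.27), PDIA4 by 1.39 (SE 0.33) and XBP1 by 0.80 (SE 0.34, adjusted p = 0.0454). SEL1L (0.04, adjusted p = 0.943) and EDEM1 (0.52, adjusted p = 0.129) did not pass, and CRELD2 fell by 2.13 (SE 0.32). HSPA5, HSP90B1, MANF and CRELD2 were called in the same direction in each of 13 alternative fits. With the animal as a replicate block over 32 libraries, those 4 remained called (2.71, 2.50, 1.99 and -2.45) and SEL1L (-0.84, adjusted p = 0.114) and EDEM1 (-0.25, adjusted p = 0.586) were not.

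**Figure D2:**
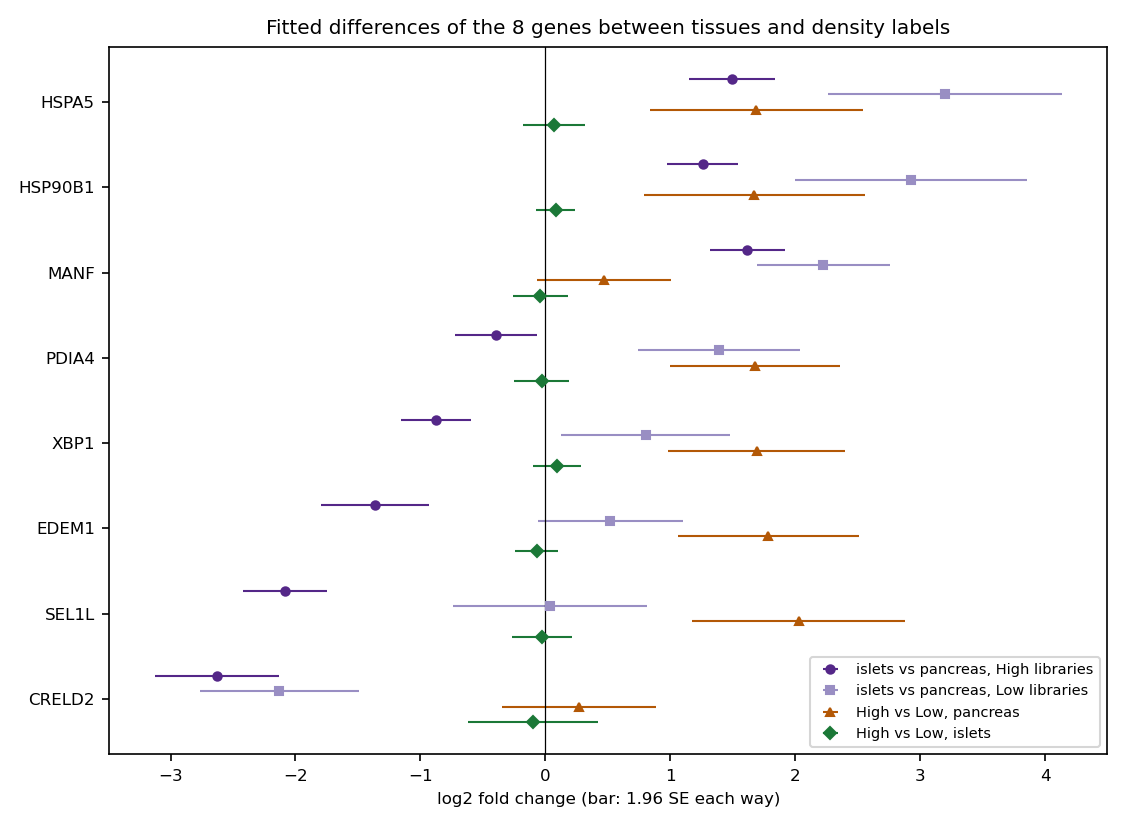
Fitted log2 fold change of each gene (point) with its 95% limits (bar), for islets against pancreas within the High and within the Low libraries and for High against Low within each tissue. The islet density differences all lie near 0, and for each of the 8 genes the tissue difference lies lower within the High libraries than within the Low ones.

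Within animals the ordering held for HSPA5, HSP90B1, MANF and CRELD2. Over all 16 animals EDEM1 was higher in the islets of 9 and SEL1L in the islets of 7. HSPA5, HSP90B1 and MANF had a higher CPM in the islets than in the pancreas of 15 of 16 animals, the exception being 12AS51 each time. The median ratio of islets to pancreas was 6.15 for HSPA5, 5.44 for HSP90B1 and 6.09 for MANF. In the 9 animals with a deeper pancreas library these medians were 4.79, 3.99 and 4.88, and in the 7 with a shallow one 40.9, 30.2 and 7.90. CRELD2 was lower in the islets of all 16 animals, with a median ratio of 0.313. SEL1L was lower in the islets of 9 of 9 animals with a deeper pancreas library (median ratio 0.445) and higher in 7 of 7 with a shallow one (median ratio 4.03). XBP1 was higher in islets in 1 of the 9 and in 7 of the 7, EDEM1 in 2 of the 9 and in 7 of the 7, and PDIA4 in 6 of the 9 and in 7 of the 7. These are descriptions, since CPM depends on what else the library holds. The share of all genes ordered in these ways within animals was not counted.

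A ratio of 2 genes within a library does not depend on the library total, and it separated islets from pancreas for most pairs with HSPA5. HSPA5 itself was higher in islets, so a gene at a like CPM in both tissues has a lower ratio there. The CPM of PDIA4 and of XBP1 overlapped between labelled islets and the deeper pancreas libraries. For each HSPA5 count, SEL1L had a median of 0.178 counts over the 17 labelled islet libraries (0.110 to 0.236) and 2.01 over the 10 deeper pancreas libraries (0.853 to 2.70). XBP1 had 0.243 (0.1504 to 0.314) against 1.32 (0.673 to 1.93). EDEM1 had 0.0634 (0.0301 to 0.0823) against 0.431 (0.208 to 0.693). No labelled islet library reached the lowest of these pancreas libraries in any of the 3 ratios. The PDIA4 ratio was 0.249 (0.160 to 0.308) in islets and 0.804 (0.457 to 1.13) in pancreas. CRELD2 had 0.00325 (0.00102 to 0.00677) per HSPA5 count in islets and 0.0539 (0.0271 to 0.0809) in pancreas. CRELD2 per MANF count was 0.0387 (0.0115 to 0.0678) against 0.622 (0.274 to 1.33).

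By contrast, the HSP90B1 ratio to HSPA5 was 0.735 (0.514 to 0.927) in labelled islets and 0.870 (0.756 to 0.985) in deeper pancreas, and the MANF ratio was 0.0946 (0.0603 to 0.135) against 0.0861 (0.0594 to 0.149), both with overlap. In the shallow libraries the SEL1L ratio was 1.67 (1.08 to 2.79) and the XBP1 ratio 1.42 (up to 3.20), with medians inside the range of the deeper pancreas. Their MANF ratio of 0.273 (0.118 or more) and CRELD2 ratio of 0.353 (0.250 to 1.40) were higher than in the pancreas High libraries (0.0849 and 0.0607 at the median), and both rest on few counts. In the islets of 12AS51 the XBP1 ratio was 0.209 and the HSP90B1 ratio 0.552, both inside the islet range, while the SEL1L ratio of 0.0394 and the EDEM1 ratio of 0.0172 were below it.

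**Figure D3:**
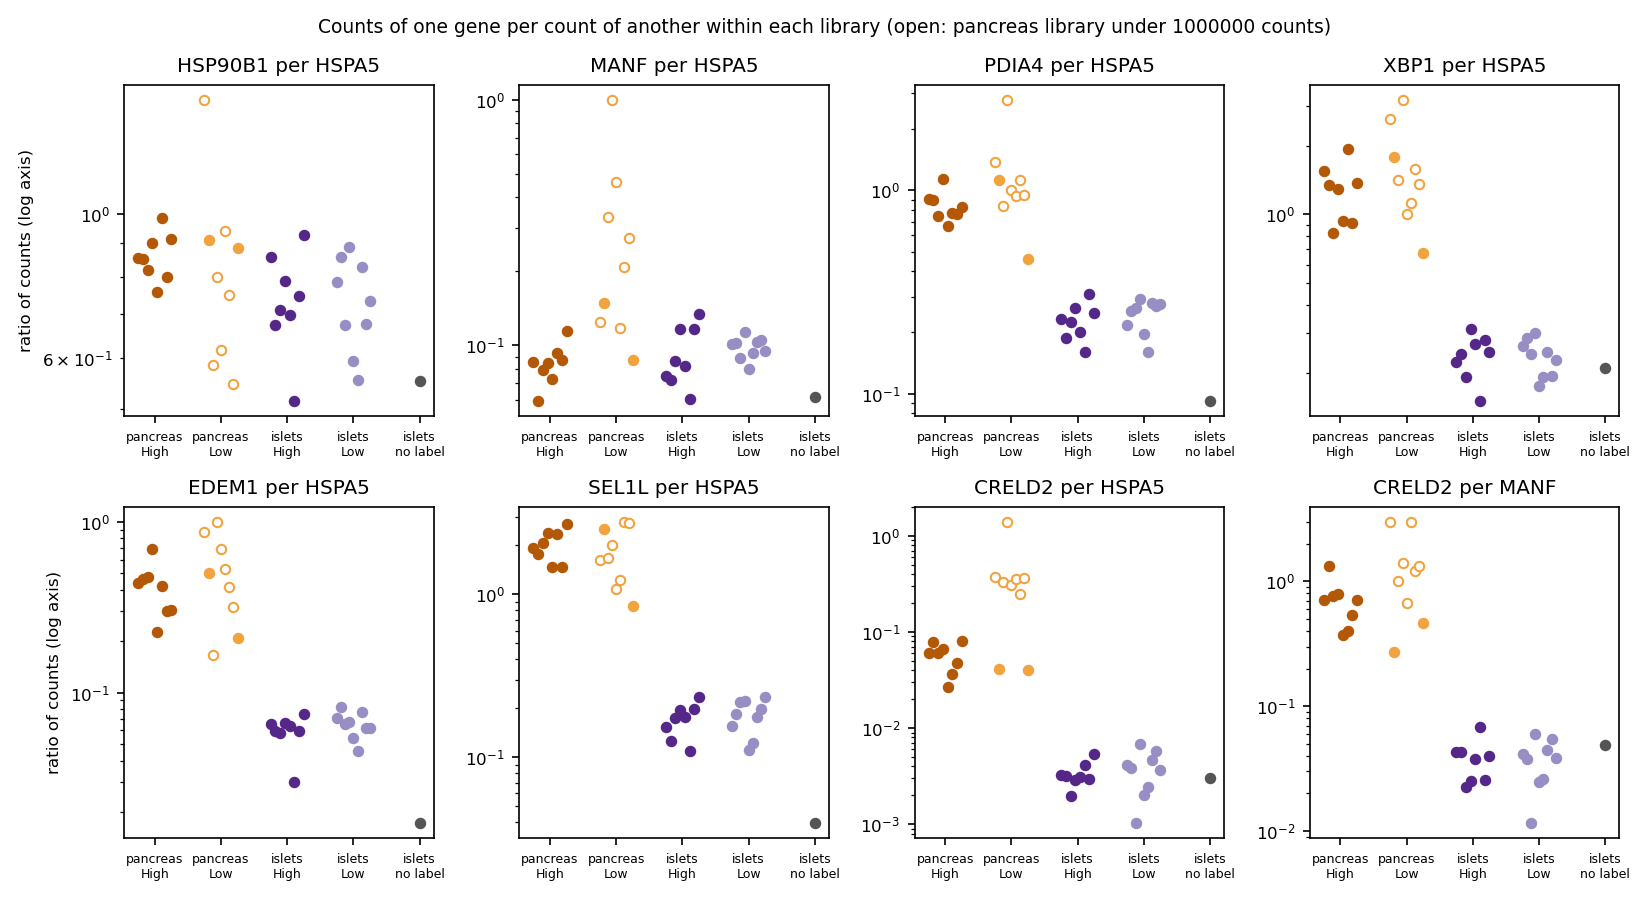
Counts of a gene for each count of another in the same library (log axis), by tissue and density label; each point is a library and open points are pancreas libraries under 1000000 counts. SEL1L, EDEM1, XBP1, PDIA4 and CRELD2 had a lower ratio to HSPA5 in each labelled islet library than in any of the 17 pancreas libraries, while the HSP90B1 and MANF ratios overlapped. HSPA5 itself was higher in labelled islets, which lowers every ratio to it there. The share of all genes with such a lower ratio was not counted.

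In pancreas, 6 of 8 genes were higher in the libraries labelled High than in those labelled Low, beside 40.3% of 10634 genes called, 18.8% higher and 21.5% lower. SEL1L was higher by 2.03 on the log2 scale (SE 0.44, adjusted p = 0.00106), EDEM1 by 1.78 (SE 0.37, adjusted p = 0.000801) and XBP1 by 1.69 (SE 0.36, adjusted p = 0.00106). PDIA4 was higher by 1.68 (SE 0.35, adjusted p = 0.000796), HSPA5 by 1.69 (SE 0.44, adjusted p = 0.00427) and HSP90B1 by 1.67 (SE 0.45, adjusted p = 0.00556). MANF (0.47, adjusted p = 0.169) and CRELD2 (0.27, adjusted p = 0.506) did not pass. The 8 genes had a median difference of 1.68, and the median of all genes was 0.07. Library totals with no scaling factor gave 1.41 for HSPA5 (adjusted p = 0.0592) and 1.39 for HSP90B1 (adjusted p = 0.0686).

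All 6 calls were made with the shallow libraries included, in which 7 of the 8 genes had at most 38 counts and SEL1L at most 67. A fit without them keeps 2 Low libraries, too few to show whether the calls depend on the shallow ones. Without them, 8 High and 2 Low libraries gave 0 of 8 genes and 0 of 13217 genes called by edgeR, with 1222 genes and 3 of the 8 at an unadjusted p under 0.05. SEL1L then stood at 0.83 (SE 0.32), EDEM1 at 0.79 (SE 0.45), PDIA4 at 0.62 (SE 0.29), XBP1 at 0.54 (SE 0.25), HSPA5 at 0.30 (SE 0.32), HSP90B1 at 0.23 (SE 0.29), CRELD2 at 0.79 (SE 0.44) and MANF at -0.06 (SE 0.25). With the acinar marker level as a covariate over all 17 libraries, 0 genes were called and 481 had an unadjusted p under 0.05, none of them among the 8. The log2 library total as a covariate also left 0 genes called, with 533 at an unadjusted p under 0.05. With the first 2 digits of the animal code as a covariate, 368 genes were called but 0 of the 8. The label, depth, acinar content and the share of counts that a few genes took cannot be told apart here, because no High library is shallow.

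In islets, High and Low libraries did not differ detectably for any of the 8 genes. The log2 differences were 0.07 for HSPA5 (95% limits -0.18 and 0.32), 0.08 for HSP90B1 (-0.07 and 0.24) and -0.04 for MANF (-0.26 and 0.18). For CRELD2 the difference was -0.10 (-0.62 and 0.42) and for PDIA4 -0.03 (-0.25 and 0.19). XBP1 stood at 0.09 (-0.10 and 0.28), EDEM1 at -0.07 (-0.24 and 0.10) and SEL1L at -0.03 (-0.26 and 0.21). The widest limits were those of CRELD2, the gene with the fewest counts. By edgeR 0.0% of 12070 genes were called, with 257 at an unadjusted p under 0.05 and none of those among the 8, and DESeq2 and limma-voom called 0 as well, with 297 and 352. Mean HSPA5 was 1421 ± 176 CPM in High (SD, n = 8) and 1477 ± 227 CPM in Low (SD, n = 9).

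The density difference was larger in pancreas than in islets for the same 6 genes by a direct test of the difference, beside 39.9% of 14337 genes called, 17.7% positive and 22.2% negative. The test took all libraries as independent, although most animals gave both tissues. SEL1L differed by 2.22 on the log2 scale (adjusted p = 0.000961), EDEM1 by 1.99 (adjusted p = 0.000417), PDIA4 by 1.88 (adjusted p = 0.000782), HSPA5 by 1.78 (adjusted p = 0.00853), XBP1 by 1.77 (adjusted p = 0.00171) and HSP90B1 by 1.73 (adjusted p = 0.00996). MANF (0.70, adjusted p = 0.0745) and CRELD2 (0.67, adjusted p = 0.172) did not pass. In 9 alternative fits MANF was called in 3 and CRELD2 in 1. Without the shallow libraries 61 genes were called and 0 of the 8, of which 4 had an unadjusted p under 0.05.

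Other genes of the pathway were taken from lists that leave out the 8 genes. Of 6 sensor and protease genes tested, 1 was higher and 2 lower in islets over all 35 libraries. Over all genes 31.1% were called higher and 31.5% lower. CREB3L2, an ER-bound transcription factor, was higher by 1.30 (271 ± 52.3 CPM in labelled islets, 95.8 ± 25.7 CPM in deeper pancreas; SD, n = 17 and 10). ERN1 fell by 1.27 over all libraries and by 0.57 without the shallow libraries and 12AS51 (adjusted p = 0.0105), and between the High libraries it was at -0.30 (adjusted p = 0.285). The shallow pancreas libraries had 25.1 ± 8.73 CPM (SD, n = 7), the deeper ones 7.92 ± 3.32 and labelled islets 7.46 ± 2.33. In the shallow libraries 3 counts amount to 5.6 to 11.3 CPM, so their ERN1 level rests on few counts. Without the shallow libraries and 12AS51, EIF2AK3 had the largest fall of the list (-1.18, adjusted p = 2.99e-10), with 155 ± 33.2 CPM in labelled islets and 239 ± 79.2 CPM in deeper pancreas. In pancreas, High against Low, EIF2AK3 was higher by 1.28 (adjusted p = 0.0132) and ERN1 fell by 1.69 (adjusted p = 0.000713).

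Of 16 genes of the PERK and integrated stress response branch, which holds the targets of the unmeasured ATF4, 5 were higher and 7 lower in islets, a share near the 62.6% called over all genes (31.1% higher, 31.5% lower). SESN2, a stress-induced inhibitor of mTORC1 signalling, was higher by 1.46 (50.9 ± 9.10 CPM in labelled islets, 11.2 ± 9.21 CPM in deeper pancreas). NUPR1, a stress-induced nuclear protein, fell by 4.59, from 1138 ± 344 CPM in deeper pancreas to 54.2 ± 14.8 CPM in labelled islets. TRIB3, a pseudokinase induced with ATF4 and DDIT3, was the largest rise without the shallow libraries and 12AS51 (2.06, adjusted p = 3.69e-06), with 25.8 ± 6.94 CPM in labelled islets and 4.44 ± 4.45 CPM in deeper pancreas. In pancreas 7 of 16 were higher and 1 lower in High, beside 18.8% and 21.5% of all genes. CEBPB, a transcription factor, rose by 1.58 and TRIB3 fell by 2.22 (adjusted p = 0.00243 and 0.00723). In the shallow libraries 3 counts amount to 5.6 to 11.3 CPM, more than the TRIB3 mean in deeper pancreas. Levels this low are poorly resolved there.

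ER chaperones and cochaperones other than the 8 genes were higher in islets for 6 of 11 and lower for 1, so that the total called was at the 62.6% of all genes. Without the shallow libraries and 12AS51 they were 6 higher and 2 lower. HYOU1, an ER chaperone that exchanges nucleotide on BiP, was higher by 2.13 (605 ± 99.3 CPM in labelled islets, 120.0 ± 55.7 CPM in deeper pancreas). SIL1, the other exchange factor of BiP, fell by 1.18 (66.5 ± 14.6 against 112 ± 18.8 CPM). Thus the exchange factors of HSPA5 stood on opposite sides. Of 12 disulfide isomerases and oxidases 6 were higher and 3 lower, with and without those libraries. PDIA6 was higher by 2.10 (323 ± 62.0 against 63.5 ± 19.6 CPM). PDIA2, the pancreas isomerase, had 884 ± 229 CPM in deeper pancreas and at most 1.21 CPM in an islet library, with a median of 0.

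In the degradation list, 4 of 14 were higher and 2 lower in islets, beside 31.1% and 31.5% of all genes. ERLEC1, a lectin of this pathway, was higher by 1.45 and EDEM2, a paralog of EDEM1, fell by 0.83 (adjusted p = 4.11e-06). Without the shallow libraries and 12AS51 the counts were 3 higher and 6 lower, and VCP, the ATPase that extracts proteins from the membrane, led the rise (0.997; 315 ± 41.1 against 107 ± 20.3 CPM). Of 18 translocation and glycosylation genes 6 were higher and 1 lower, led by RPN2, an oligosaccharyltransferase subunit (2.40; 555 ± 103 against 99.7 ± 36.0 CPM), and by SSR3, a translocon-associated subunit (-0.74, adjusted p = 0.0498). Without the shallow libraries and 12AS51, 6 of 19 were higher and 6 lower, and in the High libraries 5 of 18 were higher and 5 lower. In the High libraries 30.7% of all genes were called higher and 30.4% lower. The export and retrieval list had 6 of 10 higher and 0 lower, with SEC24D, a COPII coat subunit, at 1.47. Its count of 0 lower held only with the shallow libraries: without them and 12AS51, and also in the High libraries, 7 were higher and 3 lower, among them KDELR1, a retrieval receptor (-0.61 without those libraries). Medians of the 7 lists lay between 0.02 and 0.78 over all libraries, and the median of all genes was -0.01. Without the shallow libraries and 12AS51, 4 of the 7 medians were below 0, and they lay between -0.39 and 0.55.

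In pancreas, the chaperone, isomerase, degradation, translocation and export lists moved with the label in the same direction as the 8 genes. The sensor list had 2 of 6 higher in High and 1 lower, and the PERK list 7 of 16 higher and 1 lower. Beside 18.8% of all genes higher and 21.5% lower, higher in High were 9 of 11 chaperones, 8 of 11 isomerases and oxidases, 11 of 14 degradation genes, 17 of 18 translocation and glycosylation genes and 7 of 8 export genes, and 0 of these was lower. Their medians lay between 0.97 and 1.51, and the median of all genes was 0.07. DNAJC3, a BiP cochaperone that also inhibits PERK, rose by 1.99, ERO1B, an oxidase of pancreatic cells, by 1.77, EDEM3 by 1.62, SSR4 by 2.20 and LMAN1, a cargo receptor, by 1.73. Levels of SSR4 were 63.5 ± 25.2 CPM in High (n = 8) and 5.82 ± 3.51 CPM in the shallow libraries (n = 7, SD). In the shallow libraries 3 counts amount to 5.6 to 11.3 CPM, so their SSR4 level rests on few counts. These calls share the libraries, depth and acinar levels given above. In islets 0 genes of any list were called for density.

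**Figure D4:**
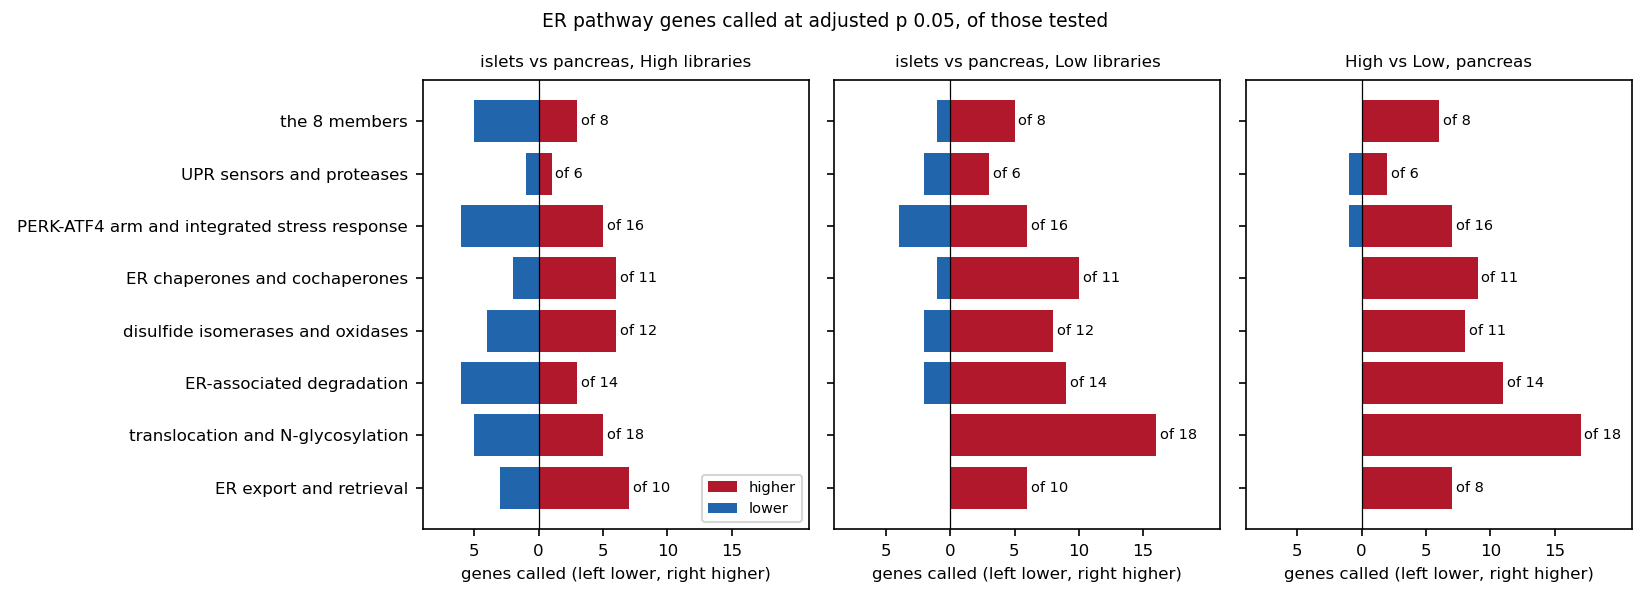
Number of genes called higher (red, to the right) or lower (blue, to the left) at an adjusted p of 0.05 in each list, with the number tested, for islets against pancreas in the High and in the Low libraries and for High against Low in pancreas. In the High libraries most lists had calls on both sides, and in pancreas nearly all calls were on the High side. Of all genes, 30.7% were called higher and 30.4% lower in the High libraries. In the Low libraries these shares were 30.4% and 30.9%, and for High against Low in pancreas 18.8% and 21.5%.

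Whether the 8 genes varied together was examined over the 17 labelled islet libraries and over the 10 deeper pancreas libraries, 56 correlations of log2(CPM + 1) in all, with 100000 permutations each and two-sided p-values adjusted over the 56. In deeper pancreas, HSPA5 and HSP90B1 rose and fell together (Pearson's r = 0.974, permutation p = 1e-05, the smallest that the permutations can give, adjusted p = 0.00056; Spearman's rho = 0.976, permutation p = 2e-05, adjusted p = 0.00112). Without the libraries farthest from the median of HSPA5, 12FS161 and 15LS30, r was 0.954. XBP1 with HSPA5 gave r = -0.100 there (permutation p = 0.788, adjusted p = 0.880; rho = -0.176, permutation p = 0.631, adjusted p = 0.772), and r = -0.109 without the same libraries. The median r of the 28 pancreas pairs was 0.379, with 12 pairs over 0.5, and it was 0.565 without 15LS30, with 17 pairs over 0.5.

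In islets the median r of the 28 pairs was 0.583, but it was 0.096 without animal 15AS28, whose islets were the lowest of the labelled islet libraries for 6 of the 8 genes. HSP90B1 and EDEM1, the highest pair (r = 0.894, permutation p = 0.00231, adjusted p = 0.0353; rho = 0.463, permutation p = 0.0635, adjusted p = 0.375), came to r = 0.447 without it and to 0.383 without 15AS28 and 16CS60. The relation of most pairs therefore rests on that library, in which 10 genes took 52.3% of the counts. PDIA4 and SEL1L held (r = 0.839, permutation p = 7e-05, adjusted p = 0.00196; rho = 0.725, permutation p = 0.00148, adjusted p = 0.0414), with r = 0.731 without 12FS161 and 15AS28. HSPA5 and HSP90B1, the closest pair in pancreas, had r = 0.354 in islets (permutation p = 0.17, adjusted p = 0.329; rho = 0.248, permutation p = 0.336, adjusted p = 0.627), with r = 0.479 without 14HS26 and 14HS27 and r = 0.148 without 15AS28. The points share library totals, so these values also follow anything that takes up a large part of a library.

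**Figure D5:**
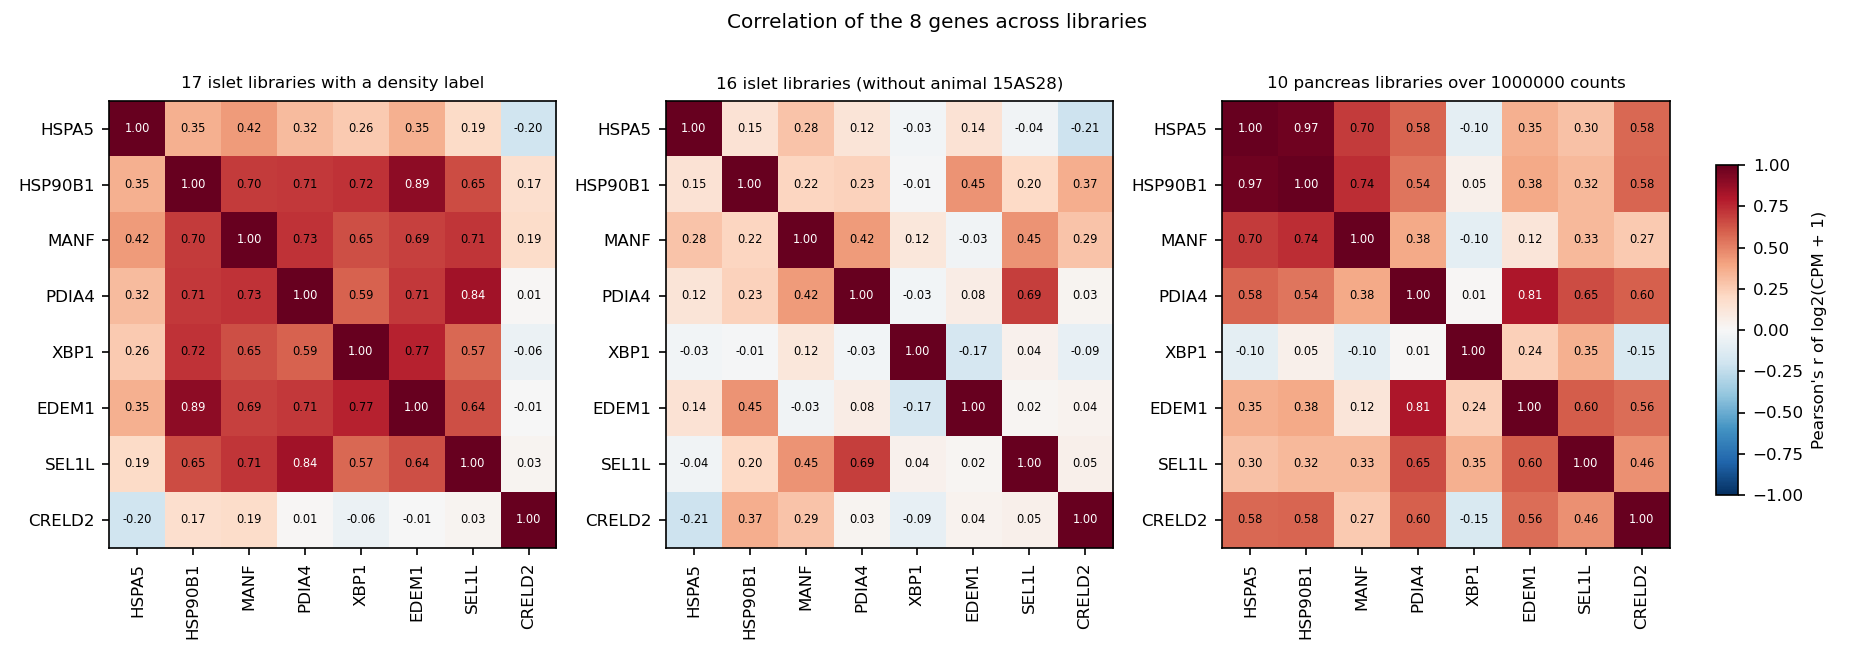
Pearson's r of log2(CPM + 1) between each pair of the 8 genes across 17 labelled islet libraries, the same without animal 15AS28, and 10 pancreas libraries over 1000000 counts; red is positive and blue negative. The islet pattern fades without 1 library, and HSPA5 with HSP90B1 is the closest pair in pancreas at 0.97.

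The genes most like HSPA5 were sought over the other genes tested, with r of log2(CPM + 1) as the measure of likeness and no test. Over the 17 labelled islet libraries the closest named gene was HERPUD1 (r = 0.773), an ER membrane protein of the degradation machinery, followed by RASGEF1B and IFRD1 (0.722 each). Over the 10 deeper pancreas libraries the closest named genes were FAM204A and GFPT1 (0.930 each) and TMED7 (0.928), of which TMED7 is a cargo receptor of early secretion. Over all 17 pancreas libraries, where depth varies most, DDX3X (0.986), SEC62 (0.981), LMAN1 (0.978), USO1 (0.977) and ADAM9 (0.977) came first. Over all 18 islet libraries, 12AS51 included, the closest named genes were BTBD8 (0.982), ZFAND5 (0.980), TMX4 (0.979) and MNS1 (0.978), and none of these was among the closest without it.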

How the data were processed

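Gene counts from RNA-seq of 35 libraries were used as deposited. Per the submitters' processing notes, the authors used FastQC, HISAT2 2.0.2, Subread and edgeR with the build susScr3. Neither the annotation nor the strand setting is given in the sources used here. The islet libraries of 15LS27 and 15LS30 were not analysed here, and 1 count column matched no sample and was not used. The title set the tissue of 2 islet samples, 11KS28 and 12AS51, whose source name reads Pancreas. Among the libraries used, the density labels of the 2 tissues differ in 4 animals, and each library kept its own. The islets of 15LS30 are labelled High and its pancreas Low.

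CPM are counts scaled to a column total of 1000000. Symbols came from an identifier table and were found for 14857 of 25880 identifiers. Overlaps and neighbours were read from a RefSeq table of Sscrofa11.1, a build other than the submitters', so no coordinates are given. Differences were tested with edgeR 4.0.16 (quasi-likelihood, robust; filterByExpr; TMM) in R 4.3.3, with p-values adjusted over all genes tested by Benjamini-Hochberg and called under 0.05. The standard error is the log2 fold change over the square root of F. The tissue test used all 35 libraries, and the density tests used the libraries of each tissue. limma 3.58.1 and DESeq2 1.42.0 were alternatives. The edgeR fits were run first on simulated data, drawn from the pooled profile of the libraries with the same spread for every gene. The simulation kept the library totals but not the differences in content between libraries. It cannot show how the fits behave where a few genes take most counts. Correlations used Python 3.11.15 and scipy 1.17.1. Intervals of single libraries are 95% Wilson intervals and cover counting error only.

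The members and lists were chosen with earlier results of these data known. Other genes are named as the largest called rise and fall of each list in a comparison. Within-group pairs of libraries, 128 in all, differed by at least 3.18 times the chi-square expected from sampling. Pairing follows the animal code in the labels: the deviations of the 2 tissues of an animal correlated above 0.1 in 5 of 16 animals (median -0.023).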

Additional observations from a re-analysis of the deposited data

Results flagged for a closer look

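Each of the 8 genes was examined in 4 groups of libraries, 32 sets of values, for a single library far from the rest, and 4 sets held one. Chance gives about 1 in 20 for independent sets. The genes share libraries and the 4 flags came from 2 libraries, so the count cannot be set against chance. In pancreas Low, animal 15LS30 stood far above the other libraries for HSPA5 (580.4 CPM) and HSP90B1 (514 CPM). This library is 1 of the 2 Low libraries that are not shallow, and it had 7803 CPM of INS. In islets High, animal 15AS28 stood far below the others for EDEM1 (36.4 CPM) and XBP1 (182 CPM), and 1 identifier took 25.7% of its counts.

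The density difference was not the same in both tissues for 6 genes by the test of the difference itself. On the log2 scale, pancreas minus islets, it was 2.22 for SEL1L, 1.99 for EDEM1, 1.88 for PDIA4, 1.78 for HSPA5, 1.77 for XBP1 and 1.73 for HSP90B1. Without the shallow pancreas libraries the values were 0.96, 0.96, 0.75, 0.31, 0.55 and 0.22 in the same order, and 0 of the 6 was called.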

How the results depend on the processing

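Islets against pancreas: HSPA5, HSP90B1, MANF and CRELD2 kept direction and call in 13 alternatives, while XBP1 changed sign with library totals (0.27), with no filter on low counts (0.0025) and in Low libraries (0.80), and PDIA4 without shallow pancreas libraries (-0.32), in High libraries (-0.40) and without these and 12AS51 (-0.28). EDEM1 (0.52) and SEL1L (0.038) changed sign in Low libraries. The animal as a replicate block gave 0.16 for XBP1 and 6719 genes called against 7726. No filter gave 15012 genes called. Leaving out each replicate gave -0.81 to -0.55 for EDEM1.

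Pancreas High against Low: the 4283 genes called became 2542 with totals, 10836 with no filter, 7587 with a filter of 1 CPM, 2828 with animals of the same label in both tissues, 368 with code digits as a covariate, 1 without 15LS30 and code 14, and 0 without shallow libraries or adjusted for acinar level or for log2 total. In the last 5 fits 0 of the 8 genes were called. MANF was called in 2 of 13 alternatives and was -0.061 without shallow libraries. The acinar covariate gave -0.22 for HSPA5, -0.26 for MANF and -0.27 for HSP90B1, and the total gave -0.18, -0.24 and -0.29. The fits without 8 libraries and without 15LS30 and code 14 were chosen after seeing the data.

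Islets High against Low had no call under any alternative, and small values changed sign: with totals HSPA5 (-0.054) and HSP90B1 (-0.0099), with limma-voom SEL1L (0.018), without the High islets whose source name reads Pancreas SEL1L (0.0041) and MANF (0.0072), with the same label in both tissues CRELD2 (0.036), EDEM1 (0.0196), SEL1L (0.089), MANF (0.022) and PDIA4 (0.071), with code digits MANF (0.047), with the pan-endocrine level HSPA5 (-0.0081), and with the pancreas label CRELD2 (0.26), SEL1L (0.043), XBP1 (-0.034), MANF (0.014) and PDIA4 (0.051). Leaving out each replicate gave -0.23 to 0.016 for CRELD2, -0.075 to 0.035 for SEL1L, -0.11 to 0.014 for MANF and -0.12 to 0.0215 for PDIA4.

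The difference between tissues had 5718 genes called, 8812 with no filter and 61 without shallow libraries, where 0 of the 8 were called. Of its 9 alternatives, 3 called MANF and 1 called CRELD2. Totals moved the split of higher and lower calls from 3834 and 3892 to 5482 and 2242 between tissues (median of all genes 0.47), from 1998 and 2285 to 570 and 1972 in pancreas, and from 2535 and 3183 to 746 and 3301 for the difference (median -0.21). Upper-quartile factors gave 3351 and 4363 (median -0.14), 1467 and 2772 (median -0.11), and 1670 and 3995 (median -0.26), and DESeq2-type factors gave 2057 and 3629 for the difference (median -0.15). The cause of these shifts was not tested. Depth limits CRELD2 in islets (8 to 42 counts) and all 8 genes in shallow libraries, where 7 of them had at most 38 counts and SEL1L 10 to 67.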
